A study of Mus musculus with 5 samples.

Results

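The let-7 family was followed through the differentiation of C2C12 mouse myoblasts on 2-colour spotted microRNA (miRNA) arrays. Members were chosen by name: the mouse probes for the guide strands mmu-let-7b, mmu-let-7c, mmu-let-7d, mmu-let-7e, mmu-let-7f, mmu-let-7g, mmu-let-7i and mmu-miR-98, which made 8 of the 343 probes with a mouse miRNA name. Of these, 7 were bright enough to be tested, among 180 tested mouse probes in all, and let-7g was not. A further 12 probes carried a let-7 name without a mouse name and served as cross-checks, of which 10 were tested.

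Let-7 was found in the nematode Caenorhabditis elegans as a regulator of developmental timing and is conserved across bilaterian animals. The mature guide strand leads Argonaute proteins to messenger RNAs through its seed, and known mammalian targets include Ras genes, Hmga2 and Lin28. LIN28 proteins block the maturation of let-7 precursors in stem cells, and let-7 is generally abundant in differentiated tissues.

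The mature sequences are shown because all 8 members share 1 seed and some differ so little that a probe may not tell them apart. Sequences and positions are from RefSeq on GRCm38.p6, each of 22 bases written 5′ to 3′, with the seed (bases 2 to 8) in capitals.
mmu-let-7b-5p: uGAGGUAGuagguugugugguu
mmu-let-7c-5p: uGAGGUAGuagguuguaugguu
mmu-let-7d-5p: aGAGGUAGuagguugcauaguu
mmu-let-7e-5p: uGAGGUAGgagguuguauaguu
mmu-let-7f-5p: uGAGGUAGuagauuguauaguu
mmu-let-7g-5p: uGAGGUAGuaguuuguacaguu
mmu-let-7i-5p: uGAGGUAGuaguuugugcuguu
mmu-miR-98-5p: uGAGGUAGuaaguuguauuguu
mmu-let-7a-5p: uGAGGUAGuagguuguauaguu
mmu-let-7d-3p: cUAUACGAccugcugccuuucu
The last 2 lines are let-7a, reached here only by probes without a mouse name, and the passenger strand of the let-7d hairpin, let-7d*, which has another seed. Among the 28 pairs of members the number of differing bases was 1 to 6. With positions counted from 1 at the 5′ end and let-7c as the starting sequence, let-7b differed from it by A17G alone and let-7a by G19A alone. Let-7e differed from let-7c by U9G and G19A, let-7f by G12A and G19A, and miR-98 by G11A and G19U. Let-7d was the member with another first base (U1A), and it also carried U16C and G19A.

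The members come from 10 annotated hairpin genes, several of them side by side. On chromosome 13, minus strand, let-7d (chr13:48536078-48536099) and let-7f (chr13:48537889-48537910) lie in a row with let-7a (chr13:48538239-48538260), with 1714 and 261 bases between their hairpins. On chromosome 15, plus strand, let-7c (chr15:85706616-85706637) and let-7b (chr15:85707325-85707346) lie 621 bases apart inside the bounds of the long noncoding RNA gene Lncppara. Let-7c has another gene (chr16:77599672-77599693, plus strand), 656 bases after miR-99a. Let-7e (chr17:17830366-17830387, plus strand) stands between miR-99b and miR-125a inside the bounds of Spaca6. Let-7f (chrX:151912353-151912374) and miR-98 (chrX:151913229-151913250), both on the plus strand, lie 785 bases apart inside Huwe1. Let-7g (chr9:106178846-106178867, plus strand) lies inside Wdr82, and let-7i (chr10:122985698-122985719, minus strand) overlaps no other annotated gene. Whether these positions are exonic or intronic was not determined here.

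C2C12 is a single clonal line of mouse myoblasts that fuse into myotubes when serum is lowered, so the arrays describe this line and not muscle tissue. Total RNA was taken with TRIzol at 5 stages: proliferating cells at 70 to 80% confluence, confluent cells at 100%, and cells 1, 2 and 4 days after transfer to 2% horse serum. Each stage had 4 arrays, stated to be 4 biological replicates with 2 in each dye, and every array set its sample beside a pool made of 4 proliferating replicates, which made 20 arrays of 3072 spots. The pool is the reference in every comparison with "the pool" below.

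Values are log2 ratios of a stage's sample to the pool, after removal of the dye effect, so that 0 is the level of the pool. SD is over the 4 arrays of a stage. Standard errors (SE), 95% confidence intervals and p-values are from limma, in a model over all 20 arrays, two-sided and adjusted by Benjamini-Hochberg over the 180 tested mouse probes. A member is said to rise or fall where its adjusted p was under 0.05. The files do not say which channel held the sample. For days 1, 2 and 4 it was taken from the probes outside the let-7 family. Arrays were first sorted by the sign of their main shared pattern (the first singular component). The direction of all was then set together, with the sample as the channel farther in sum from the proliferating arrays, which gave 6 red and 6 green. Taken singly, the sample channel was the farther on 12 of 12 arrays. The sign of each array's correlation with the authors' deposited stage values gave the same channel on 12 of these 12 arrays and on 4 of 4 confluent arrays. Directions are therefore likely, not given. The proliferating arrays could not be turned, as their correlation with the authors' deposited column was at most 0.14 in size, and they entered the model through the dye term alone. On these arrays red over green, less the dye effect, lay between -0.41 and 0.54 over the tested members, both ends belonging to miR-98, and between -0.21 and 0.17 for let-7b. The number of arrays limits the precision.

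At day 4 the skeletal muscle miRNAs on the marker list had risen (4 of 4 tested) and the probes for miRNAs tied to proliferation had fallen (4 of 4). These probes were among the 188 from which the sample channels were taken, so their directions are not independent of that choice. With the muscle-specific miRNAs left out, the channels were the same on all 12 arrays. Of markers of other cells, 1 of 2 tested smooth muscle and fibroblast probes and the 1 tested of 5 blood probes had risen. No neuronal or epithelial marker passed in limma (0 of 1 tested in each), and no endothelial or liver marker was bright enough to test. Over all tested mouse probes, 27.2% were called at day 4 and 12.8% were called lower. The part of other cells in the values below was not tested.

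The probes differed in how far they stood above background, which describes how well each ratio was measured and not the amount of each miRNA. Let-7b, let-7c, let-7d, let-7e and let-7i were detected in all 40 channels. Their median signals were 35.5, 76.0, 3.84, 4.20 and 7.64 times the detection threshold, which was the percentile 95 of empty and negative-control spots. Let-7f was detected in 29 channels and miR-98 in 30, with median signals of 1.07 and 1.33 times the threshold. Let-7g passed in 9 of 40 channels, with a median of 0.86, so no ratio is given for it. No spot of the family approached saturation, the highest reading 32917 against 65180 for any spot.

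Day 4 was compared with the pool to ask whether the family differs once differentiation is well advanced. No member rose or fell in limma: 0 of 7 passed, and 0 had an unadjusted p under 0.05, while 27.2% of all tested mouse probes were called. The 7 ratios lay between -0.11 and 0.08, 3 above 0 and 4 below, and their median size was 0.08 against 0.15 over all 180 probes. Their confidence intervals ran from -0.42 at the lowest to 0.38 at the highest. The smallest adjusted p was 0.551.

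Let-7c, measured farthest above background of the members, had ratios of -0.39, -0.37, 0.17 and 0.15 on the day 4 arrays. The arrays with the sample in red lay below 0 and those with it in green above, at means of -0.38 and 0.16, so that the stage mean was -0.11 (SD 0.31, n = 4, SE 0.11, limma adjusted p = 0.551). Let-7b, which shares a locus with let-7c, had day 4 ratios of -0.21, -0.20, 0.06 and -0.03. Its red and green arrays averaged -0.20 and 0.01. The part of the dye in this split was not tested.

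Let-7d, processed from the hairpin that also gives let-7d*, had day 4 ratios of -0.16, -0.13, 0.08 and 0.54, a mean of 0.08 (SD 0.32, n = 4). The array at 0.54 stood apart from the other 3, which straddled 0. Let-7i, encoded on its own, had ratios of 0.00, -0.74, 0.25 and 0.04, a mean of -0.11 (SD 0.43). Here 1 array lay far below the others, and without it the fitted ratio was 0.11. Let-7e ranged from -0.16 to 0.05, the tightest member at day 4 (SD 0.11). Let-7f, with ratios from -0.19 to 0.36, and its X-linked neighbour miR-98, from -0.24 to 0.48, had means of 0.08 and 0.04. The sample channel was detected on 4 and 3 of the day 4 arrays for these probes and the pool on 3 in both, so part of their ratios was set by background.

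**Figure D1:**
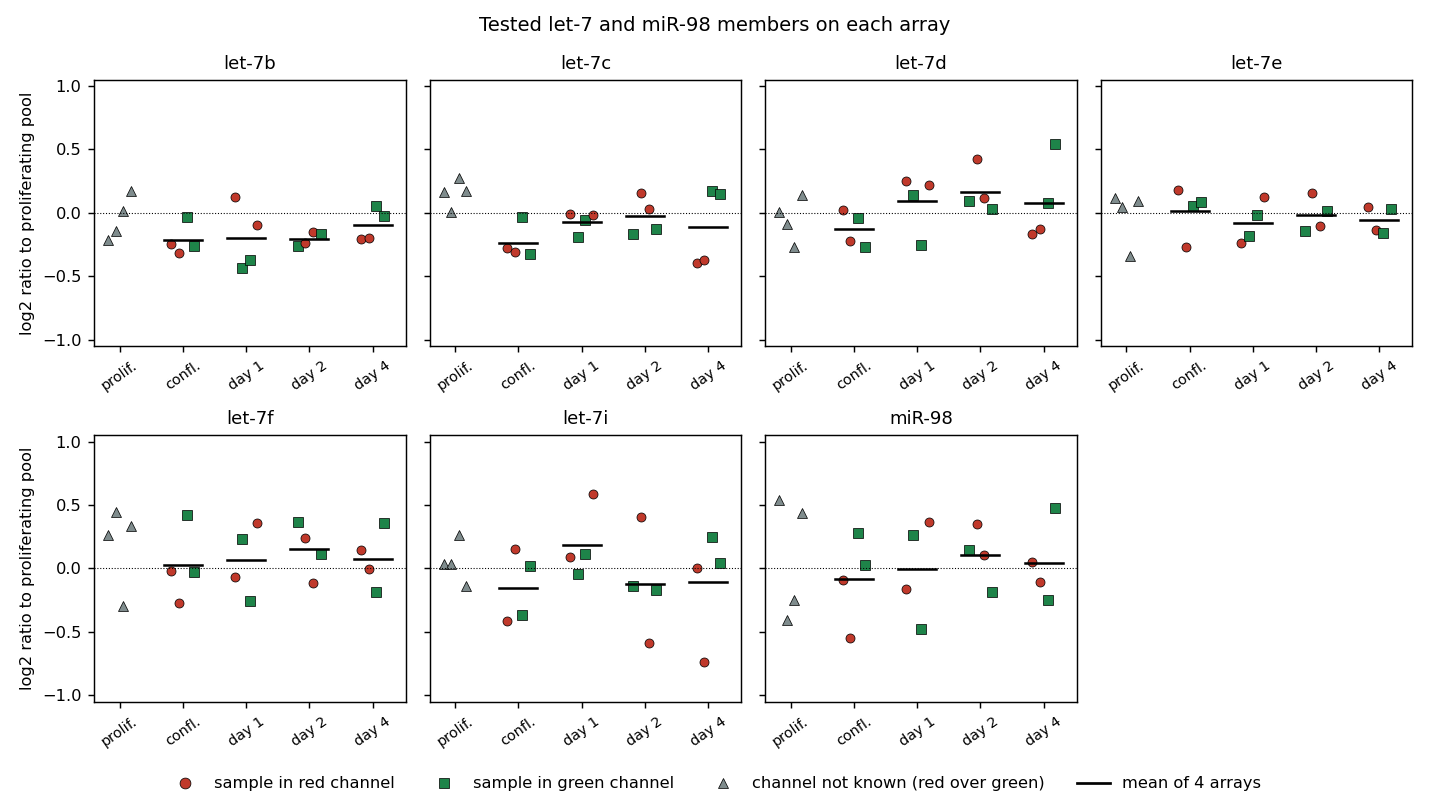
Log2 ratio to the proliferating pool of the 7 tested members on each of the 20 arrays, by stage, with the channel of the sample shown by colour and shape and the mean of 4 arrays as a bar. For proliferating arrays the channel is unknown and red over green is plotted without a mean. Most stage means lie within 0.2 of the pool, and the widest ranges at day 4 belong to let-7i (-0.74 to 0.25), miR-98 (-0.24 to 0.48) and let-7d (-0.16 to 0.54).

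At day 2 again 0 of 7 members passed in limma, with 0 at an unadjusted p under 0.05 and 19.4% of all tested mouse probes called. Ratios lay between -0.20 and 0.17, with confidence intervals within -0.44 to 0.44 and a smallest adjusted p of 0.167. Let-7b had ratios of -0.26, -0.24, -0.15 and -0.16. All 4 arrays lay below the pool in a narrow band, at a mean of -0.20 (SD 0.05, n = 4, SE 0.10, limma adjusted p = 0.167). Let-7d had ratios of 0.09, 0.42, 0.12 and 0.03, the member with all 4 arrays above the pool at this stage, at a mean of 0.17 (SD 0.17, limma adjusted p = 0.370). All 4 arrays lay on 1 side of the pool for 28.9% of all tested probes at day 2, and for 2 of 7 members. Let-7i spread most, from -0.59 to 0.41.

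At day 1, with 13.3% of all tested mouse probes called, 0 of 7 members passed in limma and 0 had an unadjusted p under 0.05. The ratios ran from -0.19 for let-7b to 0.19 for let-7i, and the smallest adjusted p was 0.211. Let-7b had ratios of 0.12, -0.43, -0.37 and -0.09. Its 2 lowest arrays were those with the sample in green, which averaged -0.40 against 0.02 for those in red. Let-7c lay just below the pool on every array, from -0.19 to -0.01. All 4 arrays lay on 1 side for 28.9% of all probes at day 1, and for 1 of 7 members. Let-7i had ratios of 0.09, -0.04, 0.11 and 0.59, where a single array carried most of the mean of 0.19 (SD 0.28, n = 4).

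Taking the mean of days 1, 2 and 4 brought 12 arrays to bear and narrowed the intervals. Let-7b fell by 0.16 log2, a ratio of 0.893 to the pool (SE 0.06, 95% interval -0.28 to -0.05, limma adjusted p = 0.0238), and lay below the pool on 10 of 12 arrays. This made 1 of 7 members called, with 41.1% of all tested mouse probes called in this comparison and 18.9% called lower. The other 6 members lay between -0.07 for let-7c and 0.11 for let-7d, all 6 intervals lay within -0.20 to 0.26, and their smallest adjusted p was 0.183. Median size was 0.07 over the 7 members and 0.15 over all probes. The call of let-7b was lost under several other ways of processing the arrays: with median centring in place of loess it came to -0.00 (adjusted p = 0.987), and with a separate loess for each print-tip block to 0.035 (adjusted p = 0.602). It was also lost without day 1 array 2 or 3, day 2 array 1 or day 4 array 1, one at a time (adjusted p of 0.0522 to 0.0749).

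The 2 spots of a probe on each array gave like values for let-7b over the 3 days (-0.14 and -0.18) and for let-7c (-0.06 and -0.08). For let-7d they gave 0.09 and 0.14, and for let-7e -0.01 and -0.09. These values are means over the arrays of the 3 days, so they do not show how far repeat spots differed on single arrays. At a single day the spots could lie farther apart, as for let-7e at day 1 (0.005 and -0.16).

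Confluent cells were compared with the pool to ask how cells at full density differ before serum is lowered. No member passed in limma (0 of 7, with 0.556% of all tested mouse probes called), though 2 had an unadjusted p under 0.05. Let-7c had ratios of -0.28, -0.31, -0.03 and -0.32, a mean of -0.23 (SD 0.14, n = 4, SE 0.11, limma adjusted p = 0.491). Let-7b had ratios of -0.25, -0.32, -0.03 and -0.26, a mean of -0.21 (SD 0.13, SE 0.10, limma adjusted p = 0.491). Both probes lay below the pool on all 4 arrays, array 3 being nearest to it in each case, and 28.3% of all probes had their 4 confluent arrays on 1 side. The other 5 members lay between -0.15 for let-7i and 0.02 for let-7f. Of the 3 possible pairings of the confluent arrays, the one with the largest spread of pair differences over probes outside the family was taken. Its SD was 0.17, against 0.10 and 0.13 for the others, and such a choice can enlarge the ratios. Its direction was set by a correlation with the later change (r = 0.38 across probes, which are not independent replicates). The authors' deposited stage values did not enter the calculation of this choice and gave the same channels. The direction was printed only after that was seen.

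Between confluence and day 1, when serum was lowered, 0 of 7 members passed in limma, 0 at an unadjusted p under 0.05, against 3.89% of all tested mouse probes called. The differences, day 1 minus confluent, lay between -0.09 for let-7e and 0.34 for let-7i (95% interval -0.11 to 0.79, limma adjusted p = 0.506). Let-7d came to 0.22 (SE 0.16) and let-7c to 0.17 (SE 0.15). All of these differences rest on the pairing and direction taken for the confluent arrays. Within differentiation, 0 of 7 members passed in limma for day 2 against day 1, for day 4 against day 2 or for day 4 against day 1, 0 at an unadjusted p under 0.05 in each, with 0.556%, 0% and 8.89% of all tested mouse probes called. Let-7i at day 2 minus day 1 had the widest difference, -0.31 (95% interval -0.76 to 0.14). For day 4 minus day 1 the median size was 0.04 over the members and 0.18 over all probes.

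**Figure D2:**
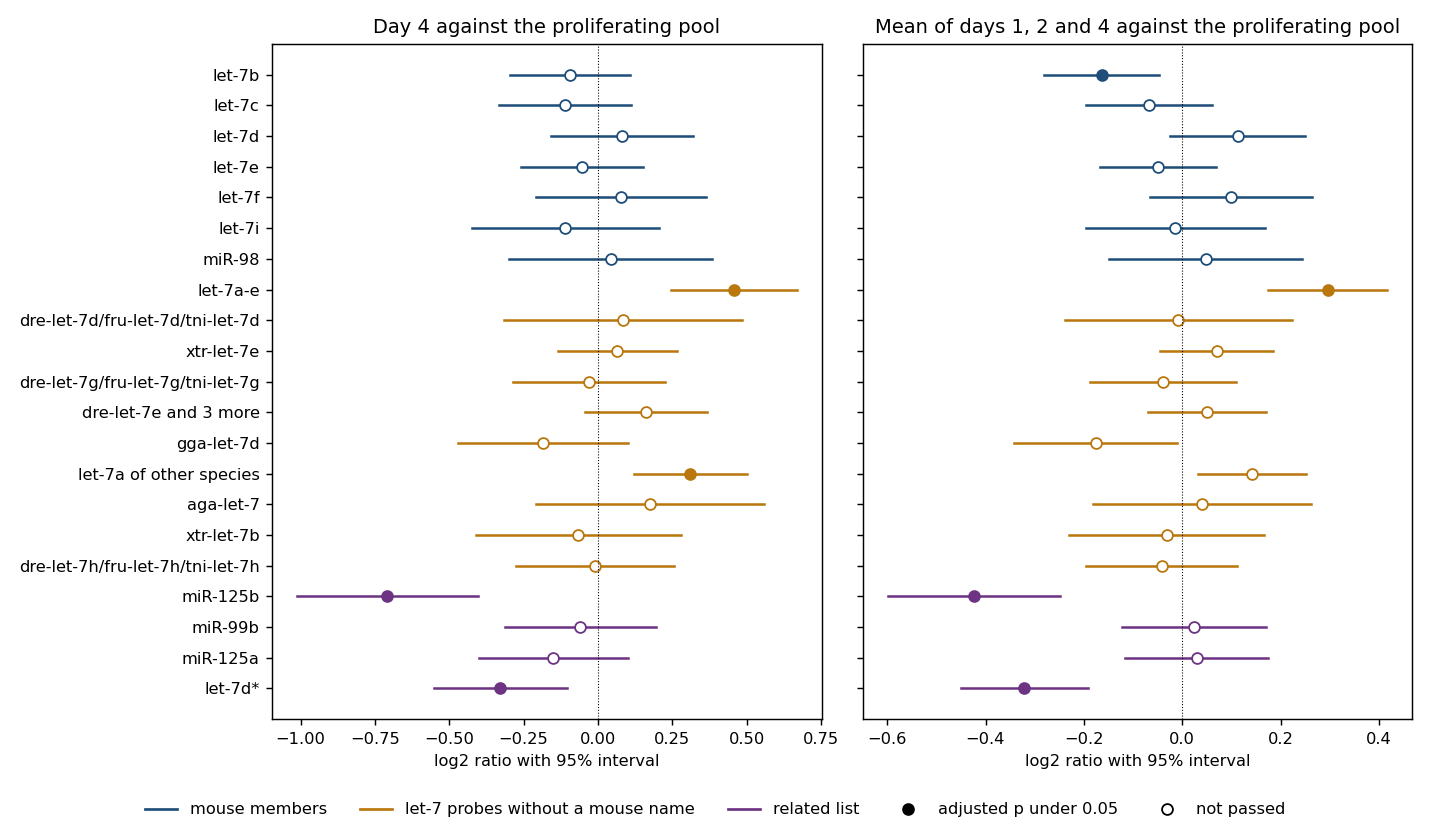
Log2 ratio to the proliferating pool with its 95% interval from limma for the 7 tested mouse members, the 10 tested let-7 probes without a mouse name and the 4 tested probes of the related list, at day 4 (left) and for the mean of days 1, 2 and 4 (right). Filled points passed an adjusted p of 0.05: the let-7a-e probe, let-7a of other species, miR-125b and let-7d* at day 4, and let-7b, the let-7a-e probe, miR-125b and let-7d* for the mean.

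The let-7 probes without a mouse name were fitted with the 363 tested probes of that kind and adjusted over them. At day 4, 2 of 10 rose and 0 fell, with 12.9% of the 363 probes called. Both carry let-7a in their names. The probe that the files name let-7a-e had ratios of 0.40, 0.06, 0.61 and 0.77 on the day 4 arrays. All 4 lay above the pool, the 2 green arrays highest, at a mean of 0.46 (SD 0.31, n = 4, SE 0.10, limma adjusted p = 0.00451), or 1.37-fold. Which miRNAs the name covers is not stated in the sources used here. The probe for let-7a of human, rat and other species had ratios of 0.15, 0.15, 0.49 and 0.45, again all above the pool, at a mean of 0.31 (SD 0.18, SE 0.09, limma adjusted p = 0.0270).

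The files hold no probe sequences, but mouse let-7a, printed above, differs by 1 base from each of let-7c, let-7e and let-7f. Of these members only let-7c was set beside the let-7a-e probe and that for let-7a of other species. Over days 1, 2 and 4 the mean ratios of let-7c, let-7e and let-7f were -0.07, -0.05 and 0.10. Averaged over days 1, 2 and 4, the let-7a-e probe stood 0.36 log2 above let-7c (0.35, 0.17 and 0.57 at days 1, 2 and 4), on 11 of 12 arrays. The probe for let-7a of other species stood 0.21 above let-7c, on 10 of 12 arrays and on 4 of 4 at day 4, where the difference was 0.42. The exact permutation test of each difference, which exchanged the sample channels 2 and 2 within each stage (216 arrangements, two-sided), gave p = 0.00926, the smallest that this design allows, and 0.0185 after adjustment over the 4 probe pairs compared. The let-7a-e probe stood 0.15 above that for let-7a of other species (exact permutation p = 0.0463, adjusted 0.0463). These pairs were chosen after their values were seen, and cross-hybridisation between near-identical sequences was not tested.

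Both day 4 calls depended on single arrays. Without day 4 array 4 the let-7a-e probe came to 0.35 (limma adjusted p = 0.0694). The probe for let-7a of other species came to 0.26 (0.166) without array 4 and to 0.25 (0.195) without array 3. For the mean of days 1, 2 and 4, 1 of 10 cross-check probes rose, with 22.9% of the 363 called: the let-7a-e probe at 0.30 (SE 0.06, limma adjusted p = 0.000773), while let-7a of other species stood at 0.14 (0.0559). With the proliferating arrays in place of the pool as the control, the let-7a-e mean was 0.22 to 0.38 and passed in 0 of 6 ways of turning those arrays (lowest limma adjusted p = 0.0604), and its day 4 value passed in 3 of the 6. The day 4 value of let-7a of other species was 0.22 to 0.41 and passed in 0 of the 6 (limma adjusted p of 0.0707 to 0.359). Its day 4 call was also lost with print-tip loess, no filter on dim probes, only the arrays compared or no dye term (0.0712 to 0.147). At day 2 and at day 1, 0 of 10 passed in limma, with 5.79% and 9.92% of the 363 called. On the confluent arrays 0.275% of the 363 were called and 0 of 10 passed. The let-7a-e probe and that for let-7a of other species lay below the pool on all 4 arrays, at -0.21 and -0.27 (limma adjusted p = 0.669 and 0.289).

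The remaining 8 tested cross-check probes, designed for fish, frog, chicken and mosquito let-7, lay between -0.18 and 0.17 at day 4. The chicken let-7d probe was lowest and the mosquito let-7 probe highest. Neither passed in limma (adjusted p = 0.514 and 0.688). The frog let-7b probe stood at -0.07 at day 4, beside -0.09 for mouse let-7b, and the frog let-7e probe at 0.07, beside -0.05 for mouse let-7e.

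**Figure D3:**
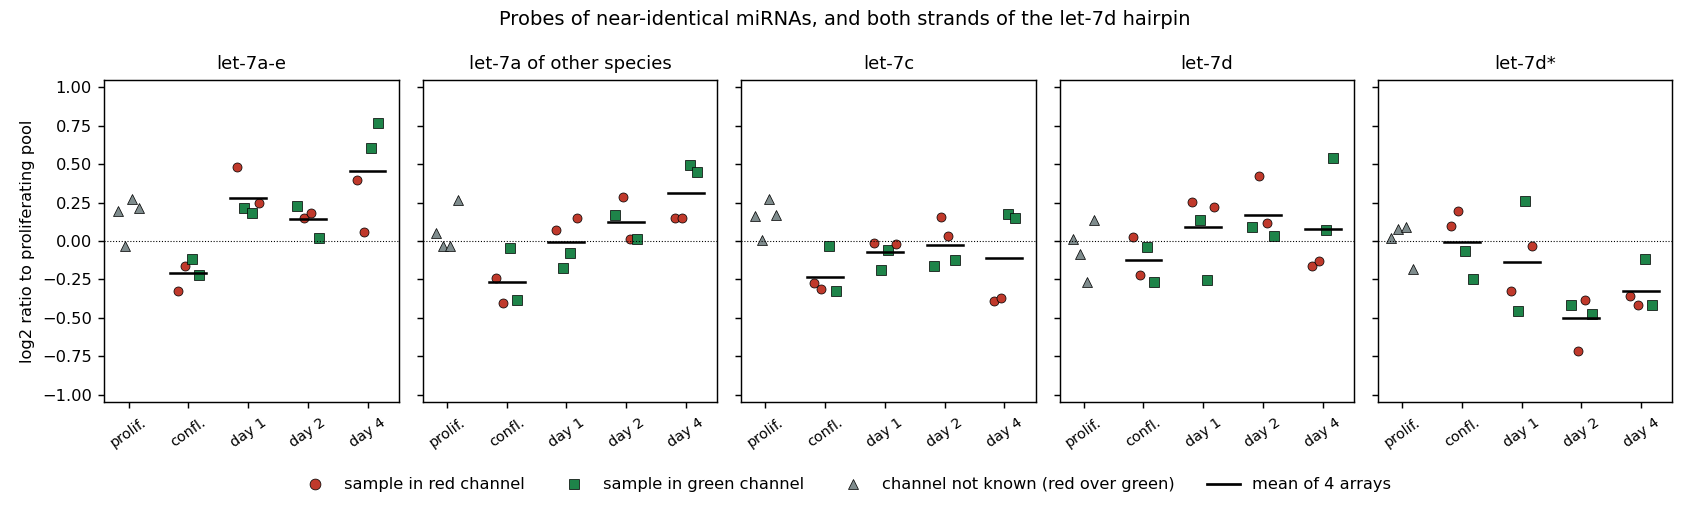
Log2 ratio to the proliferating pool on each array for the let-7a-e probe, the probe for let-7a of other species, let-7c, let-7d and let-7d*, by stage, marked by the channel of the sample, with the mean of 4 arrays as a bar. Proliferating arrays show red over green. At day 4 all 4 arrays lie above the pool for the let-7a-e probe and for let-7a of other species. At that stage let-7c is split by channel, and all 4 arrays lie below the pool for let-7d*.

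The related list held 7 mouse probes: let-7d*, miR-202, and the miRNAs whose hairpins accompany let-7 hairpins in mammalian genomes, miR-99a, miR-99b, miR-100, miR-125a and miR-125b. Of these 4 were tested. At day 4, 2 of 4 fell and 0 rose, with 12.8% of all tested mouse probes called lower. At day 2, 1 of 4 fell (7.22% called lower), and at day 1 none of the 4 passed in limma, with 13.3% of all tested mouse probes called.

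Let-7d* had ratios of -0.42, -0.72, -0.39 and -0.47 at day 2. All 4 arrays lay below the pool and below every day 2 array of let-7d, at a mean of -0.50 (SD 0.15, n = 4, SE 0.11, limma adjusted p = 0.00145), a ratio of 0.708. At day 4 it had ratios of -0.36, -0.42, -0.12 and -0.42, a mean of -0.33 (SD 0.14, limma adjusted p = 0.0241). At day 1 its arrays straddled the pool, from -0.46 to 0.26, and the mean of -0.14 did not pass (limma adjusted p = 0.443). The day 2 and day 4 values stood out on both spots of the probe (-0.52 and -0.47 at day 2, -0.39 and -0.27 at day 4), while at day 1 the spots disagreed (0.16 and -0.43). Over days 1, 2 and 4 it averaged -0.32 (SE 0.06, limma adjusted p = 0.000216), so that with miR-125b 2 of 4 fell in that comparison, with 18.9% of all tested mouse probes called lower. The day 4 call was lost with no background correction, print-tip loess, median centring, no filter on dim probes, repeat spots kept apart or no dye term (limma adjusted p of 0.0564 to 0.439), without day 4 array 1, 2 or 4 (0.0871 to 0.116), and in all 6 ways of taking the proliferating arrays as the control (0.0625 to 0.296). The day 2 call was lost with repeat spots kept apart (limma adjusted p = 0.0609), with no dye term (0.218) and in 3 of those 6 ways, and the call for the mean with no dye term (0.0770) and in 4 of the 6.

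The 2 strands of the let-7d hairpin could be set beside each other because they come from the same precursor. The ratio of let-7d exceeded that of let-7d* by 0.23, 0.66 and 0.41 at days 1, 2 and 4, a mean of 0.43. The difference lay above 0 on 11 of 12 arrays, the exception being day 1 array 3. The exact permutation test gave p = 0.0185 (two-sided, 216 arrangements) and 0.0247 adjusted over the 4 pairs. The pair was chosen after its values were seen, and the test is of the difference between the changes of the probes, not of their levels.

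MiR-125b, a mammalian homologue of lin-4 of Caenorhabditis elegans that represses Igf2 in myoblasts, had day 4 ratios of -0.56, -0.95, -0.63 and -0.69. All 4 lay well below the pool and below every day 4 array of let-7b and let-7c, at a mean of -0.71 (SD 0.17, n = 4, SE 0.15, limma adjusted p = 0.000566), a ratio of 0.612. At days 1 and 2 it stood at -0.19 and -0.37 (limma adjusted p = 0.430 and 0.0849). Over days 1, 2 and 4 it averaged -0.42 (SE 0.08, limma adjusted p = 0.000272). Without a dye term in the model neither value passed (limma adjusted p = 0.236 and 0.152). Set against the proliferating arrays instead of the pool, the mean was -0.84 to -0.0087 and passed in 1 of 6 ways, and the day 4 value was -1.12 to -0.29 and passed in 5 of 6 (limma adjusted p = 0.267 in the other).

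MiR-99b and miR-125a flank let-7e on chromosome 17, 94 and 367 bases from its hairpin. At day 1 miR-99b had ratios of 0.47, 0.29, 0.21 and 0.37, all above the pool and above the highest let-7e array (0.12), at a mean of 0.33 (SD 0.11, n = 4, SE 0.12, limma adjusted p = 0.0707). All 4 arrays lay above the pool for 19.4% of tested probes at that stage. MiR-125a stood at 0.25 (limma adjusted p = 0.195) and let-7e at -0.08. At day 4 the 3 stood at -0.06, -0.15 and -0.05 in the same order. With the pairing and direction taken for the confluent arrays, miR-99b differed by 0.59 between confluence and day 1 (95% interval 0.23 to 0.95, limma adjusted p = 0.0560). This passed on leaving out proliferating array 1 or 4 (0.0415 and 0.0122). It did not pass on leaving out any other single array, with limma adjusted p up to 0.215. The authors' deposited day 1 value for miR-99b was 0.07, below the fitted interval (0.08 to 0.59).

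The members were not tightly alike from array to array. The mean ratio of the 7 tested members was between -0.24 and 0.22 on the 12 arrays of days 1, 2 and 4, and both ends were day 4 arrays. The root mean square difference of a member from that mean was smallest for let-7e (0.14) and let-7c (0.16), followed by let-7d (0.17), let-7f (0.19), miR-98 (0.20), let-7b (0.24) and let-7i (0.27). Of the 172 tested mouse probes outside the family that were compared by the same measure, the median difference was 0.34. Each member is part of the mean and these 172 probes are not, which draws the members nearer to it. The 2 sets of differences therefore cannot be compared directly. The 5 most like the family mean were miR-184 (0.15), a probe shared by the 5p strands of miR-291a and miR-291b (0.15), miR-29b (0.15), miR-326 (0.15) and miR-700 (0.16). Each of these 5 lay within 0.16 of the pool at all 3 days.

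The authors' deposited table gave 1 value per probe and stage, in which the arrays behind it and their normalisation are not stated. Across the 180 tested probes its day 1, day 2 and day 4 columns followed the fitted ratios with r = 0.93, 0.97 and 0.98, and the confluent column with r = 0.78, across probes that are not independent replicates. In the authors' deposited table let-7b stood at -0.15, -0.15 and -0.02 at days 1, 2 and 4, beside fitted ratios of -0.19, -0.20 and -0.09. For let-7d the authors' deposited table gave 0.32, 0.31 and 0.34, above the fitted 0.09, 0.17 and 0.08, and its day 4 value lay just outside the fitted interval (-0.16 to 0.32). For the let-7a-e probe the authors' deposited table gave 0.52 at day 4, and for let-7a of other species 0.44. For let-7d* the authors' deposited table gave 0.11, -0.56 and -0.39 at days 1, 2 and 4, where the fitted day 1 ratio was -0.14. On confluent arrays the authors' deposited table gave -0.11 for let-7b and -0.13 for let-7c, beside fitted -0.21 and -0.23. For let-7d it gave 0.13, opposite in sign to the fitted -0.13 and outside the fitted interval (-0.36 to 0.11). For let-7f it gave -0.17, also opposite in sign to the fitted 0.02. Let-7e, let-7i and miR-98 stood at 0.10, -0.21 and -0.02, with the sign of the fitted 0.02, -0.15 and -0.08.

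**Figure D4:**
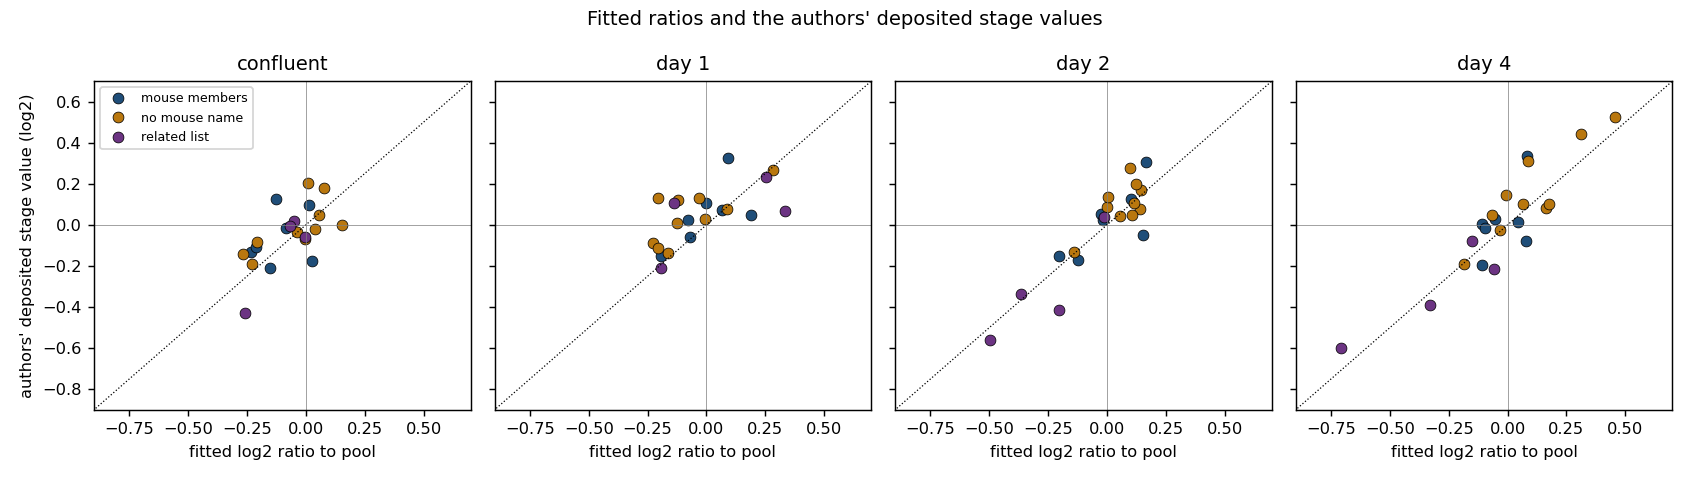
Fitted log2 ratio to the pool (horizontal) against the authors' deposited stage value (vertical, log2) for the tested members, the let-7 probes without a mouse name and the related list, 1 panel a stage, with the line of equality dotted. At day 4 the let-7a-e probe and let-7a of other species lie at the upper right (authors' values 0.52 and 0.44). At that stage miR-125b lies at the lower left and the mouse members near 0, with let-7d above the line.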

How the data were processed

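Two-colour arrays gave deposited intensities, per the file headers the median and mean foreground and a morphological background of each spot in red and green, not normalised. Recomputing the deposited log2 ratio of each spot from the red and green medians less their backgrounds gave it back within 5e-10. The authors' deposited table of stage values is also on a log2 scale, centred near 0 (column medians -0.02 to 0.00, r with the fitted ratios of 0.78 to 0.98). The image software, the scanner and the normalisation behind that table are not given in the sources used here.

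Medians were corrected with normexp (offset 50), normalised within each array by global loess (control spots weighted 0) and averaged over the 2 spots of a probe, with limma 3.58.1 in R 4.3.3. A probe was tested where the stage's own channel passed the percentile 95 of empty and negative-control spots on at least 3 of 4 arrays of a stage, as the files hold no measure of background spread. On proliferating arrays either channel could pass. A probe counted as detected in a channel where either of its 2 spots passed. Background-corrected ratios were fitted with a dye term and 1 effect per stage (15 residual degrees of freedom). Each stage was compared with the pool, which leaves out the spread of proliferating cultures, and the planned comparison with the proliferating arrays is an alternative, since these can be turned in 6 ways. The plan gave confluent sizes without direction. The direction printed was added after the authors' deposited stage values were found to give the same pairing. Sample channels came from 188 detected probes outside the family. Arrays turned alike correlated at 0.42 to 0.92 across probes, and arrays turned oppositely at -0.83 to -0.41. Exact permutation tests served for 4 pairs of probes. The fit was tested on simulated data.

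All 8 members and the related list are named, with the cross-check probes that passed and the 5 probes nearest the family mean by root mean square difference. The frog and chicken probes and the mosquito probe were named after their values were seen. Members, lists and tests were chosen with earlier results of these data known. No 2 arrays were identical. Alternatives are described in the closing section.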

Additional observations from a re-analysis of the deposited data

Results flagged for a closer look

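Each of the 7 tested members, let-7d*, the let-7a-e probe and let-7a of other species was examined at each stage for an array far from the other 3. Among 50 groups of 4, 2 such arrays were found, where chance alone gives about 1 in 20. Let-7c on confluent array 3 stood at -0.030 log2, while the other 3 confluent arrays lay between -0.32 and -0.28. Let-7e on proliferating array 3, where the sample channel is not known and red over green is given, stood at -0.34, while the other 3 lay between 0.05 and 0.12.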

How the results depend on the processing

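No paired analysis was possible because the arrays carry no replicate numbers in the labels. Over the alternatives, 2467 of 2485 member values kept their side of the threshold and, where called, their direction. Of the others, 14 lost their call, 1 of them with its sign turned. Direction was not counted for uncalled values, of which 253 differed in sign. Member counts of 0 stayed at 0 in limma under every alternative run. The count for the mean of days 1, 2 and 4 (1 of 7) was 0 with median centring, with no filter on dim probes, with no dye term and under all 6 ways of using the proliferating arrays as the control, and 0 to 1 on leaving out single arrays. Let-7b itself ranged from -0.30 to -0.03 over those 6 ways and was 0.035 with print-tip loess, where let-7f came to 0.22 (limma adjusted p = 0.0221). The day 4 count of cross-check probes (2 of 10) was 1 with print-tip loess, no filter, only the arrays compared, no dye term and 3 of the 6 ways, 0 under the other 3 ways, and 0 to 2 on leaving out single arrays. The count for the mean of days (1 of 10) was 2 with no background correction, median centring, detection on all 4 arrays or repeat spots kept apart, 0 under 4 of the 6 ways and, under the other 2, 1 by the frog let-7b probe (xtr-let-7b, at -0.54 and 0.48) in place of the let-7a-e probe, and 1 to 2 on leaving out single arrays. With days 1, 2 and 4 turned the other way, every sign turns: miR-125b would be 0.71 at day 4 and 0.42 for the mean, let-7d* 0.33, 0.50 and 0.32 at day 4, day 2 and for the mean, let-7b 0.16 for the mean, the let-7a-e probe -0.46 and -0.30 at day 4 and for the mean, and let-7a of other species -0.31 at day 4. The cause of these shifts was not tested, except that fewer arrays or more probes entered some fits. Turning by the authors' deposited stage values, chosen after seeing the data, gave the same channels on 12 of 12 arrays. The dimmer probes, let-7f and miR-98, limit what can be said of them, since the pool was above background on 1 to 3 of 4 arrays.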
